A study of Mus musculus with 6 samples.

Results

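Rab GTPases are small GTP-binding proteins that mark the membranes of the secretory and endocytic pathways. In its GTP-bound form a Rab recruits effectors that bud, move, tether or fuse vesicles, and it is switched on by exchange factors (GEFs), switched off by GTPase-activating proteins (GAPs), and carried through the cytosol by a GDP dissociation inhibitor. Brain endothelium is known for a low rate of vesicle transport across the cell, and it uses endosomal Rabs to sort receptors between recycling and lysosomes. The genes described here are the rows whose symbol is Rab followed by a number and, where present, a letter and a further number. The table held 58 such genes among 23827 rows. The rule used names alone and no measured value.

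The study compared E14.5 mouse brain endothelial cells of the mixed background C57BL/6 x 129/Sv in 2 groups of 3 biological replicates. The first group was labelled Wt (wild type) and the second carried an Axin1 overexpression allele, R26 Axin1 IresLacZ. Axin1 is a scaffold of the complex that destroys beta-catenin, and tamoxifen was given to the mother at E12.5 in both groups. Ribosome-bound RNA was purified by translating ribosome affinity purification (TRAP), so that the values are levels of polyadenylated RNA on tagged ribosomes. The Cre and ribosome tag lines were not given in the sources used here. Axin1 itself read 13.6, 14.4 and 15.1 RPKM (reads per kilobase of transcript, scaled to library depth) in the wild-type libraries and 37.8, 38.1 and 37.4 RPKM in the Axin1 libraries.

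Depth, as reads recovered from the values, was 53524184 to 62507510 per library in wild type and 21076922 to 37040176 in the Axin1 group. The column names carry 1 tag for every wild-type library and another for every Axin1 library, and if it marks a batch, batch and genotype cannot be told apart. The 10 brain endothelial markers were present, with a summed level of 3727 to 3848 RPKM in wild type and 3023 to 3253 RPKM in the Axin1 group. Called lower were 4 of them, Cldn5 (mean 1263 against 748 RPKM), Slc2a1 (722 against 547 RPKM), Esam and Ocln. Pecam1 (353 against 386 RPKM), Cdh5 (370 against 394 RPKM) and Egfl7 (394 against 457 RPKM) had higher means and were not called. Of the 10, 3 had a log2 fold change above 0 and 7 below 0. Here and below, a gene called higher or lower in the Axin1 group passed limma's test of log2(RPKM + 1) at an adjusted p under 0.05, with adjustment over every gene that averaged 1 RPKM or more. RNA of other cells was present as well: the 12 neural progenitor markers summed to 1730 to 1900.5 RPKM in wild type and 2247 to 2347 RPKM in the Axin1 group (9 of 12 higher), and the 14 neuron markers to 659.5 to 846 and 825 to 843 RPKM (4 of 14 higher). Erythroid markers summed to 98.1 to 126 RPKM in wild type and 321 to 643 RPKM in the Axin1 group, with 2 of 11 listed at 0 in every library. Of these 11 markers 5 were tested, and 4 were higher and 1 lower. Pericyte markers (44.4 to 52.4 against 31.9 to 45.1 RPKM) and meningeal fibroblast markers (211 to 321 against 219 to 226 RPKM) included 4 of 9 and 3 of 10 tested genes that were lower, and 1 of 10 microglia and macrophage markers was higher. Their part in any Rab difference was not tested. In such bulk libraries a change in the number of cells of a type and a change of RNA per cell look alike.

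Of the 58 Rab genes, 47 (81.0%) reached a mean of 1 RPKM over the 6 libraries, against 52.4% of all rows. The nearest members above that level were Rab36 (mean 1.35 RPKM), Rab3b (1.53 RPKM) and Rab39 (1.92 RPKM), and the nearest below it were Rab40b (0.884 RPKM), Rab38 (0.76 RPKM) and Rab42 (0.566 RPKM). The other 8 below it were Rab27b, Rab20, Rab37, Rab26, Rab19, Rab17, Rab25 and Rab44. Rab25, an epithelial relative of Rab11, was listed at 0 in 2 of the Axin1 libraries, and Rab44 in 1. Rab27b, a Rab of regulated secretion, had 0.43, 0.331 and 0.409 RPKM in wild type and 0.937, 0.697 and 0.448 RPKM with Axin1 overexpression, too low for the test.

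Sequence upstream of the genes is shown for 3 members. They are Rab13, whose call withstood every setting tried, Rab11a of the recycling endosome and, from the early endosome, Rab5a, which was not called. Each window is the 250 bases before an annotated start in RefSeq on GRCm38.p6, written 5′ to 3′ on the gene's strand. Capitals mark matches to a TCF/LEF motif, the DNA element of the factors that carry beta-catenin, or to the palindromic E-box bound by factors such as TFEB and MYC. Rab13 has 2 annotated starts, at chr3:90213465-90213714 and chr3:90220534-90220783 on the plus strand. The Rab11a window is chr9:64737757-64738006 on the minus strand and that of Rab5a is chr17:53478984-53479233 on the plus strand.
Rab13, first start: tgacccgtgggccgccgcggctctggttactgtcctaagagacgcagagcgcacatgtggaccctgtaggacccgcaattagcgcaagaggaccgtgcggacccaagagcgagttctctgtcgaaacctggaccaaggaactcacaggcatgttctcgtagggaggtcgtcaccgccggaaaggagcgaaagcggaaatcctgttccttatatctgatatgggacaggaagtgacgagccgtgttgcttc
Rab13, second start: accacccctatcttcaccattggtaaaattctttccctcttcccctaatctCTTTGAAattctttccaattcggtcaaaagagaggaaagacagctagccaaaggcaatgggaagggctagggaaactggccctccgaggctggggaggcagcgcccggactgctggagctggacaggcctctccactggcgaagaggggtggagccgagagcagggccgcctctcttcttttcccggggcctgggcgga
Rab11a: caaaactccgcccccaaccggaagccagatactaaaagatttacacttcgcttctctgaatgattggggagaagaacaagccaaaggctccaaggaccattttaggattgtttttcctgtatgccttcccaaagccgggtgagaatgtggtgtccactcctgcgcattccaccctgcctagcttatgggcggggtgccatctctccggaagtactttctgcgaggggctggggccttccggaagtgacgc
Rab5a: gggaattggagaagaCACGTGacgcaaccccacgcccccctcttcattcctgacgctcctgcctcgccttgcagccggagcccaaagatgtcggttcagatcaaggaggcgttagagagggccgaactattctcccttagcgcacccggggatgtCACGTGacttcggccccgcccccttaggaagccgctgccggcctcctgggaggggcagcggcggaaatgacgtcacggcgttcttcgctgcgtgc

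The TCF/LEF motif was searched on both strands as CTTTG followed by 2 bases that are each A or T, and it shares no letters with the E-box in these windows. At least 1 window of 8 of 48 matched members held it (16.7%), and 16.8% of 27025 genes did in windows of the same length. Those members were Rab7, Rab13, Rab31, Rab9, Rab3c, Rab43, Rab15 and Rab17. The match of Rab13 lies 199 bases before its second start, and no file shows which start the RNA came from. The E-box CACGTG stood before 5 of 48 members (10.4%, against 6.86% of genes), with 2 copies before Rab5a, 235 and 95 bases before its start. A match is a description of letters and not a bound site.

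Rab5 proteins drive fusion of incoming vesicles with the early endosome, and Rab5c made up most of their RNA. Rab5c had 172, 171 and 176 RPKM in wild type and 175, 186 and 184 RPKM with Axin1 overexpression. The groups overlapped, and the log2 fold change was 0.07 (SE 0.06; limma adjusted p = 0.421). Fold changes are of log2(RPKM + 1), Axin1 overexpression minus wild type, and understate the change of low genes. Rab5a had 33.9, 30.6 and 36.1 RPKM in wild type and 35.9, 41.0 and 37.1 RPKM in the Axin1 group. Its groups overlapped too (log2 fold change 0.18, SE 0.08). Rab5b had 17.0, 19.0 and 17.5 RPKM against 16.03, 17.8 and 16.3 RPKM, again with overlap (log2 fold change -0.09, SE 0.07). The share of Rab5c in the summed level of the 3 genes was 77.1 ± 0.445% in wild type and 76.9 ± 0.802% in the Axin1 group (SD, n = 3).

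Rab4 returns cargo quickly from early endosomes to the surface. Rab4b had 33.6, 32.2 and 30.4 RPKM in wild type and 28.6, 30.3 and 32.3 RPKM with Axin1 overexpression, a log2 fold change of -0.07 (SE 0.07). Rab4a had 17.1, 19.5 and 20.1 RPKM against 19.6, 19.8 and 21.4 RPKM, a log2 fold change of 0.10 (SE 0.08). Neither gene separated the groups. In the reference annotation 85.2% of the exonic bases of Rab4b are also exons of a same-strand gene model, Gm21983, so the Rab4b reads cannot be assigned to Rab4b alone.

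Rab11 marks the slower recycling endosome. Rab11a had 115, 112 and 114 RPKM in wild type and 126, 134 and 135 RPKM with Axin1 overexpression. Every Axin1 library lay above every wild-type library, and Rab11a was higher by a log2 of 0.21 (SE 0.06, limma adjusted p = 0.0333). This call was lost when any library but Axin1 replicate 1 was left out, with either rescaling of the libraries (by the median of ratios, or by setting the upper quartile equal) and with the replicate number as a block. It was also lost once GC content and transcript length were corrected for, where the log2 fold change was 0.01 (adjusted p = 0.943). Rab11b had 8.35, 9.26 and 9.82 RPKM against 9.89, 10.96 and 9.27 RPKM, with overlap (log2 fold change 0.12, SE 0.08). Rab11a held 92.6 ± 0.603% of the summed level of the pair in wild type and 92.9 ± 0.59% in the Axin1 group (SD, n = 3).

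Rab7 directs late endosomes to lysosomes. It had 59.4, 51.3 and 59.4 RPKM in wild type and 57.8, 62.6 and 60.0 RPKM with Axin1 overexpression. The groups overlapped, and the log2 fold change was 0.09 (SE 0.08, limma adjusted p = 0.433). The reads and RPKM of Rab7 imply a counted length of 622 bases, 28.8% of the reference transcript, and the level per length refers to that shorter model. Rab7l1, a relative now named Rab29 that acts at lysosomes and the Golgi, had 14.01, 13.95 and 13.14 RPKM against 12.86, 13.94 and 15.63 RPKM (log2 fold change 0.04, SE 0.08).

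**Figure D1:**
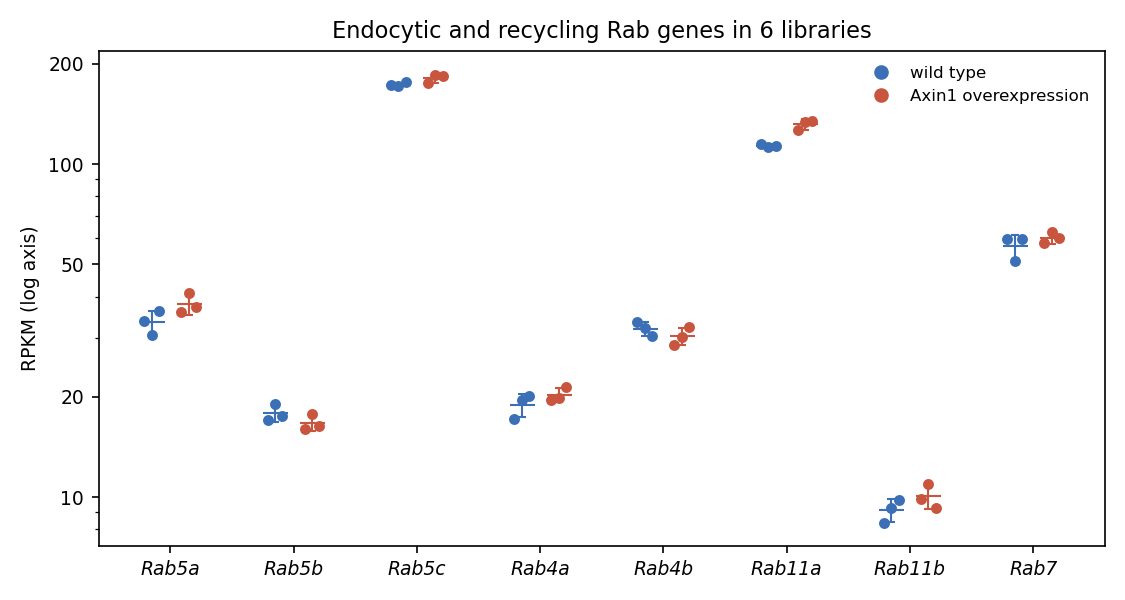
RPKM of the Rab5, Rab4, Rab11 and Rab7 genes (log axis) in 3 wild-type (blue) and 3 Axin1 overexpression (red) libraries; points are libraries, dashes and bars the mean ± SD. The groups of Rab11a are apart, and those of the other 7 genes overlap.

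In the wild-type libraries the Rab genes spanned a wide range of levels. The 5 highest means were those of Rab5c (173 RPKM), Rab1b (169.6 RPKM), Rab1 (114 RPKM), Rab11a (114 RPKM) and Rab2a (96.7 RPKM), and they held 37.8% of the summed level of all 58. Rab1 and its paralogue Rab1b serve transport from the endoplasmic reticulum to the Golgi, and Rab2a serves traffic between the same compartments. Of 46 neighbouring pairs in this order of the 47 genes, 36 overlapped in their 3 libraries. Thus Rab5c (171 to 176 RPKM) was not apart from Rab1b (165 to 176 RPKM), nor Rab1 (110.0 to 119.9 RPKM) from Rab11a (112 to 115 RPKM), whereas Rab1b stood clear of Rab1 and Rab11a clear of Rab2a (93.1 to 101 RPKM). Further steps without overlap lay between Rab14 and Rab18, Rab8a and Rab7, Rab35 and Rab3a, Rab6b and Rab28, Rab22a and Rab9, and among the low genes, with Rab30 above Rab32, Rab32 above Rab27a and Rab27a above Rab39b in every wild-type library. In all, 33 members had a wild-type mean of at least 10 RPKM.

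Levels per length rest on the gene model the reads were counted over. The implied length lay within 5% of the reference transcript for 36 of 58 members and under 50% of it for 6: Rab7, Rab8a, Rab18, Rab21, Rab22a and Rab30. Sharing of sequence also differed. Over 10% of the 36-base words of the transcripts of Rab43, Rab4b, Rab7, Rab5b, Rab9 and Rab11b recur in other annotated transcripts, pseudogenes among them. How such reads were assigned was not given in the sources used here. In the reference annotation, 5 tested members share over 10% of their exonic bases with opposite-strand genes. These are Rab2b (77.6%), Rab24 (66.4%), Rab6a (21.3%), Rab39b (18.6%) and Rab33b (17.6%). Any effect of that overlap on their levels was not tested.

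Few Rab genes were called different between the genotypes, and those that were moved by little. Small changes were general: the median absolute log2 fold change was 0.15 for the Rab genes and 0.14 for all tested genes. An unadjusted limma p under 0.05 was reached by 40.4% and 39.0%. Of the 47 tested, 8 passed at an adjusted p under 0.05 (17.0%), while 22.8% of all 12493 tested genes did. Higher were 7 members (14.9%, against 14.4% of all genes): Rab13, Rab39b, Rab1, Rab8b, Rab14, Rab11a and Rab32. Lower was 1, Rab43 (2.13%, against 8.37%). The groups did not overlap for 21 members (44.7%, against 43.9% of all genes), 15 of them higher and 6 lower with Axin1 overexpression (28.0% and 15.9% of all genes). These shares are near those of all genes or below them. The log2 fold changes of the 47 ran from -0.26 to 0.37, with a median of 0.09 beside 0.04 for all tested genes, and 32 were above 0. Among all tested genes 1800 were higher and 1046 lower, and after rescaling by the median of ratios 1248 were higher and 1392 lower, with 3 and 2 Rab genes among them. Rab13 and Rab43 were the 2 of the 47 with an adjusted p under 0.05 in the authors' deposited table (4.26%, against 12.4% of all tested genes).

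**Figure D2:**
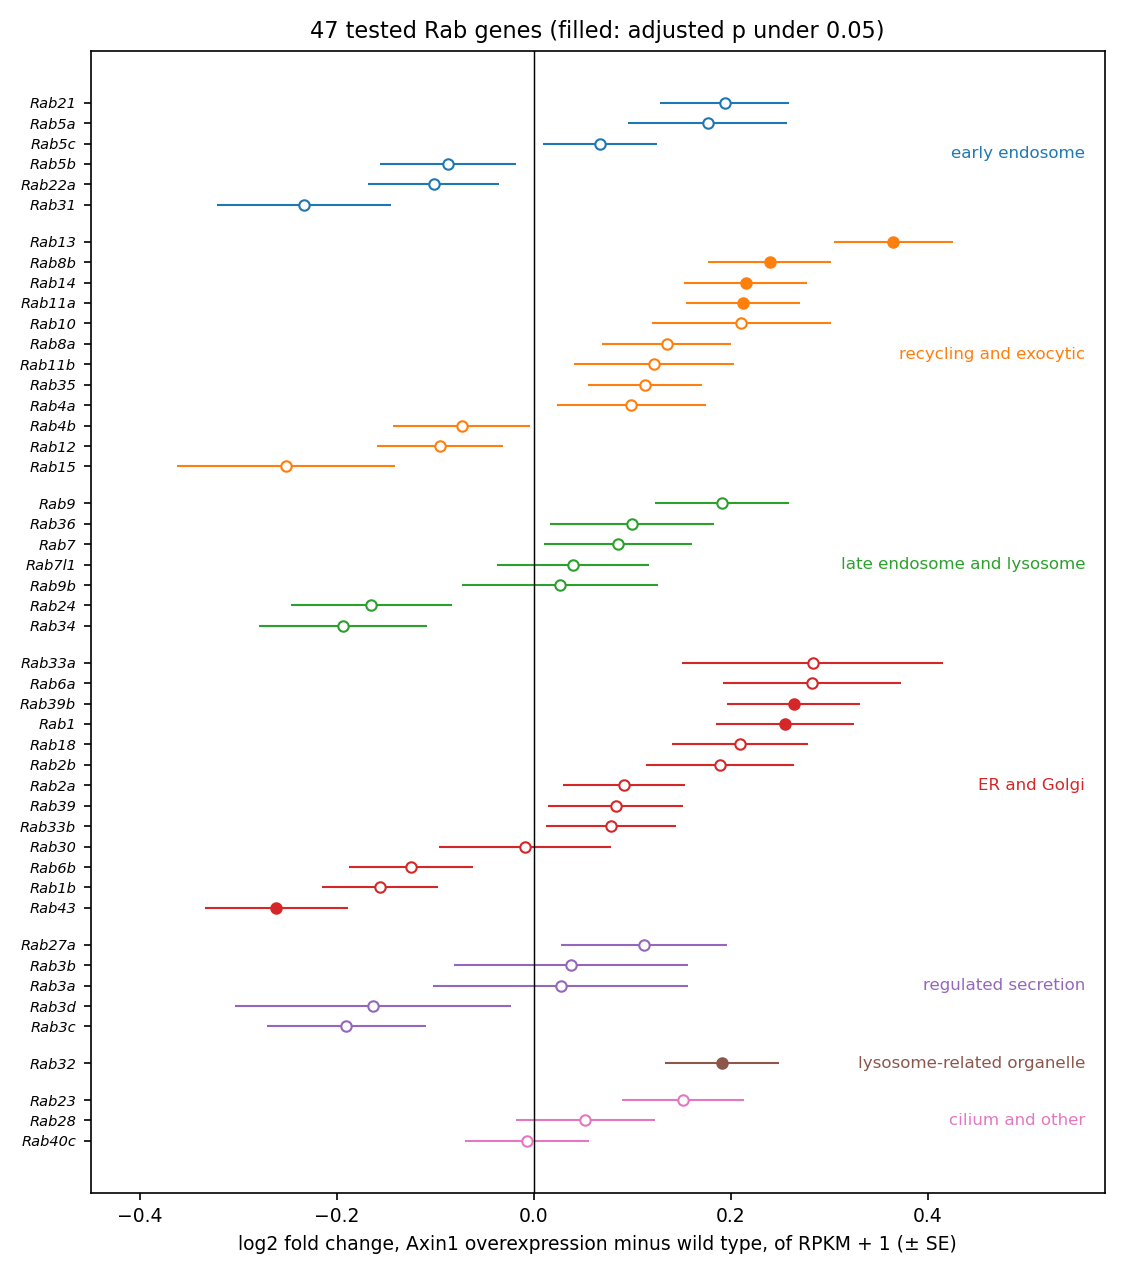
Log2 fold change of RPKM + 1 (Axin1 overexpression minus wild type, ± SE) of the 47 tested Rab genes, ordered by role; filled points have an adjusted p under 0.05. The largest is Rab13 (0.37) and the lowest Rab43 (-0.26).

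Rab13, which carries junction proteins and receptors from recycling endosomes to the cell surface of epithelial and endothelial cells, showed the largest difference of the 47. It had 35.7, 35.8 and 34.5 RPKM in wild type and 44.7, 48.2 and 44.7 RPKM with Axin1 overexpression. All Axin1 libraries were above all wild-type libraries, and Rab13 rose by a log2 of 0.37 (SE 0.06, limma adjusted p = 0.00558). The call was kept under each of the 16 other settings, with log2 fold changes of 0.27 to 0.39 and adjusted p of 0.00224 to 0.0316. In the authors' deposited table the fold, Axin1 overexpression over wild type, was 1.26 with an adjusted p of 0.0175. No other annotated gene overlaps its exons, and none of its 36-base words recurs in another transcript.

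The other recycling and exocytic members that passed were Rab8b and Rab14. Rab8b, which acts in delivery to the plasma membrane, had 16.2, 16.7 and 17.9 RPKM in wild type and 19.5, 20.4 and 20.5 RPKM with Axin1 overexpression. It was higher by a log2 of 0.24 (SE 0.06, limma adjusted p = 0.0277), and its groups were apart. Rab14, which acts between the Golgi and early endosomes, had 82.0, 82.5 and 85.0 RPKM against 91.6, 96.9 and 102 RPKM. It was higher by 0.22 (SE 0.06, limma adjusted p = 0.0403), also without overlap. The Rab14 call was lost under 10 of 16 other settings: a pseudocount of 0.1 (adjusted p = 0.0524), the replicate block (0.0557), both rescalings (0.0684 and 0.0884), the GC and length correction (0.373), and leaving out any library but Axin1 replicate 1. That of Rab8b was lost under 6 of 16, among them the upper quartile and the GC and length correction. Of 12 tested members of this role 4 were higher and 0 lower by limma (14.4% and 8.37% of all genes), and 6 were apart as higher and 0 as lower (28.0% and 15.9% of all genes). Their median log2 fold change was 0.13, and whether the role differs from other genes was not tested. Rab10, which moves transporters to the surface, had a log2 fold change of 0.21 with an unadjusted p of 0.046, and Rab15, a Rab of recycling in neural cells, one of -0.25 with 0.0498. Rab12 and Rab4b were also below 0.

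Among ER and Golgi members Rab1 and Rab39b were higher and Rab43 lower. Rab1 had 113, 110.0 and 119.9 RPKM in wild type and 127, 144 and 139 RPKM with Axin1 overexpression, a log2 fold change of 0.26 with SE 0.07 (limma adjusted p = 0.0333). Rab39b, known for its high expression in neurons, had 2.51, 2.13 and 2.28 RPKM against 2.785, 3.05 and 3.07 RPKM, a log2 fold change of 0.26 with SE 0.07 (limma adjusted p = 0.0263). Both were apart between the groups. The Rab1 call was lost under 7 of 16 other settings, both rescalings among them, and that of Rab39b under 6 of 15. Of the 14 neuron markers 4 were higher in the same libraries, and whether this bears on Rab39b was not tested. Rab43, which acts at the Golgi, had 11.1, 13.3 and 11.998 RPKM in wild type and 10.01, 10.2 and 9.67 RPKM in the Axin1 group. It was lower in every Axin1 library, with a log2 fold change of -0.26 and SE 0.07 (limma adjusted p = 0.035), and the authors' deposited table gave a fold of 0.791 with an adjusted p of 0.0208. In the reference annotation 87.8% of its exonic bases also belong to a same-strand model, Gm45140, so its reads cannot be assigned to Rab43 alone. The Rab43 call was lost under 7 of 16 other settings, among them no filter on low values and leaving out any library but wild-type replicate 1.

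Rab32, a Rab of lysosome-related organelles and mitochondria, had 3.48, 3.41 and 3.22 RPKM in wild type and 4.04, 4.04 and 3.90 RPKM with Axin1 overexpression. It was apart and higher by a log2 of 0.19 (SE 0.06, limma adjusted p = 0.0451). Its call was kept under 2 of 15 other settings, the fewest of the 8. Rab13 was the one Rab gene called without wild-type replicate 2, without Axin1 replicate 2 and without Axin1 replicate 3. Calls were fewer over the whole table as well: 18.6%, 8.44% and 11.2% of all tested genes in those runs, against 22.8% with every library. Without wild-type replicate 1, Rab13, Rab39b and Rab43 were called, beside 15.3% of all tested genes.

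**Figure D3:**
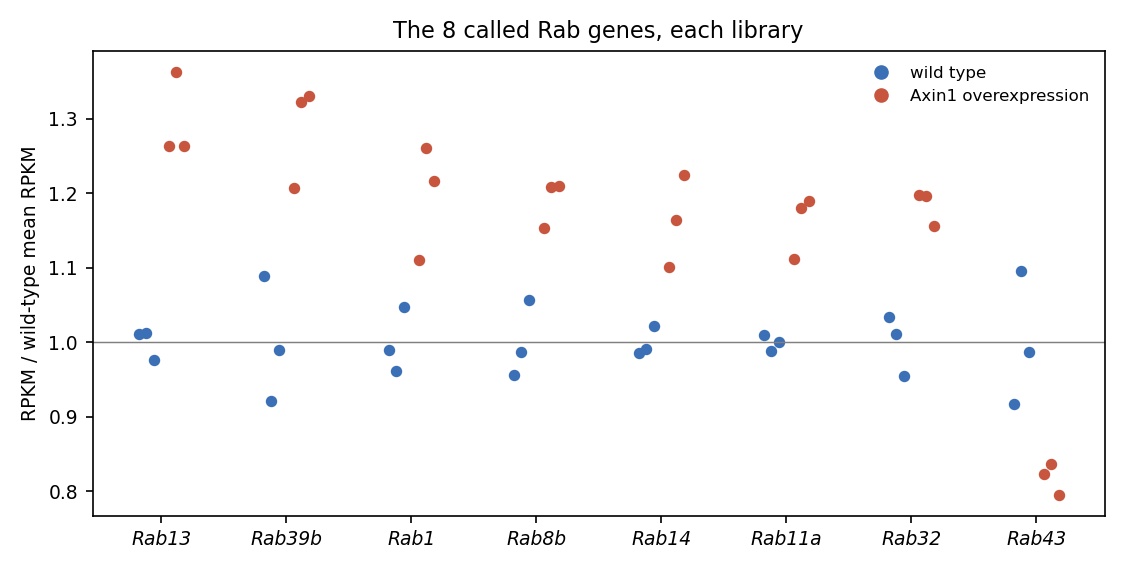
RPKM of the 8 called Rab genes in each library, divided by the wild-type mean of the gene (grey line at 1). For each gene the 3 Axin1 libraries (red) lie on one side of the 3 wild-type libraries (blue), above them for 7 genes and below them for Rab43.

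By limma 0 of 6 early endosome, 0 of 7 late endosome and lysosome, and 0 of 5 secretory members passed. At an unadjusted p under 0.05 there were 2, 1 and 1, voom on recovered reads called 1 (Rab21), 0 and 0, and the authors' deposited table had 0 in each. The groups were apart for 2, 2 and 1 of these genes. Of all tested genes, 39.0% had an unadjusted p under 0.05 by limma, voom called 24.3%, and the groups were apart for 43.9%. Rab31, which acts between the Golgi and endosomes, had 31.7, 39.8 and 33.8 RPKM in wild type and 28.4, 29.4 and 31.1 RPKM with Axin1 overexpression. All 3 Axin1 libraries were below wild type, with a log2 fold change of -0.23 and SE 0.09 (limma adjusted p = 0.0883). Of the late endosome and lysosome members Rab34, which positions lysosomes and serves cilium formation, had 12.1, 10.1 and 9.62 RPKM against 9.58, 8.72 and 9.001 RPKM (log2 fold change -0.19, SE 0.09). Rab9, which returns cargo from late endosomes to the Golgi, had a log2 fold change of 0.19 (SE 0.07) and was apart as higher. Rab21, an endosomal Rab of integrin traffic, had a log2 fold change of 0.19 (SE 0.07) and was apart as higher.

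The Rab3 genes of regulated secretion, best known from synaptic vesicles, were led by Rab3a. It had 41.5, 29.4 and 41.8 RPKM in wild type and 35.7, 37.0 and 40.9 RPKM with Axin1 overexpression (log2 fold change 0.03, SE 0.13). Wild-type replicate 2 was the lowest library for Rab3a, and it was also the lowest for the summed neuron markers (659.5 RPKM, against 801 to 846 RPKM in the other wild-type libraries). The same library was lowest for the neural progenitor (1730 RPKM), meningeal fibroblast (211 RPKM), erythroid (98.1 RPKM) and oligodendrocyte precursor (10.7 RPKM) sums. For the endothelial, pericyte, and microglia and macrophage sums another library was lowest. Any link of these sums to Rab3a was not tested. Rab3c had 13.5, 16.3 and 13.9 RPKM against 12.1, 13.3 and 12.4 RPKM. It was apart as lower (log2 fold change -0.19, SE 0.08, limma adjusted p = 0.118), and unlike Rab3a it was highest in wild-type replicate 2. Rab27a, which docks secretory granules, had 2.74 to 2.77 RPKM in wild type and 2.56 to 3.38 RPKM in the Axin1 group. Rab23, a Rab of hedgehog signalling and cilia, had 8.66, 8.62 and 8.94 RPKM against 9.57, 10.5 and 9.46 RPKM and was apart as higher (log2 fold change 0.15, SE 0.06, limma adjusted p = 0.107).

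Paralogues of a Rab did not always lie on the same side of 0. Rab1b had 176, 168 and 165 RPKM in wild type and 148, 156 and 153 RPKM with Axin1 overexpression, opposite in direction to Rab1. It did not pass (log2 fold change -0.16, SE 0.06, limma adjusted p = 0.0885), but it was called lower with a pseudocount of 10 (adjusted p = 0.0249), by the median of ratios (0.0313) and at a shared upper quartile (0.0275). The share of Rab1 in the summed level of the pair was 39.2, 39.6 and 42.1% in wild type and 46.3, 48.1 and 47.6% in the Axin1 group, 7.04 points higher, while their sum was 284 ± 5.55 against 289 ± 12.97 RPKM (SD, n = 3). Rab6a, a Golgi Rab of all tissues, had 63.9, 57.6 and 71.2 RPKM against 72.2, 78.6 and 83.8 RPKM (log2 fold change 0.28, SE 0.09, limma adjusted p = 0.0549), and it was called higher with a filter of 5 RPKM (adjusted p = 0.0439), the replicate block (0.0404), voom on recovered reads (0.0374), trended robust variances (0.0368) and without wild-type replicate 3. Its neuronal paralogue Rab6b had 28.8, 30.8 and 28.4 RPKM against 25.6, 27.2 and 27.7 RPKM (log2 fold change -0.12, SE 0.06). The share of Rab6a in that pair was 65.2 to 71.5% in wild type and 73.8 to 75.2% in the Axin1 group. Of 11 sets of paralogues, 4 had shares that did not overlap between the groups: Rab1, Rab2, Rab6 and Rab39. The groups lay close for Rab2a, at 89.05 to 89.68% in wild type and 88.2 to 89.02% in the Axin1 group. Among all tested genes, the levels of 43.9% did not overlap, and the shares of other gene pairs were not counted. With 3 libraries a group the smallest p of the exact two-sided permutation test is 0.1. The 4 sets without overlap reached it (0.275 with Benjamini-Hochberg adjustment over 11 sets), so no set can pass in this design. Rab33a, a Golgi Rab of brain and immune cells, had 10.3, 6.46 and 9.02 RPKM in wild type and 10.3, 10.4 and 10.7 RPKM in the Axin1 group (log2 fold change 0.28, SE 0.13).

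**Figure D4:**
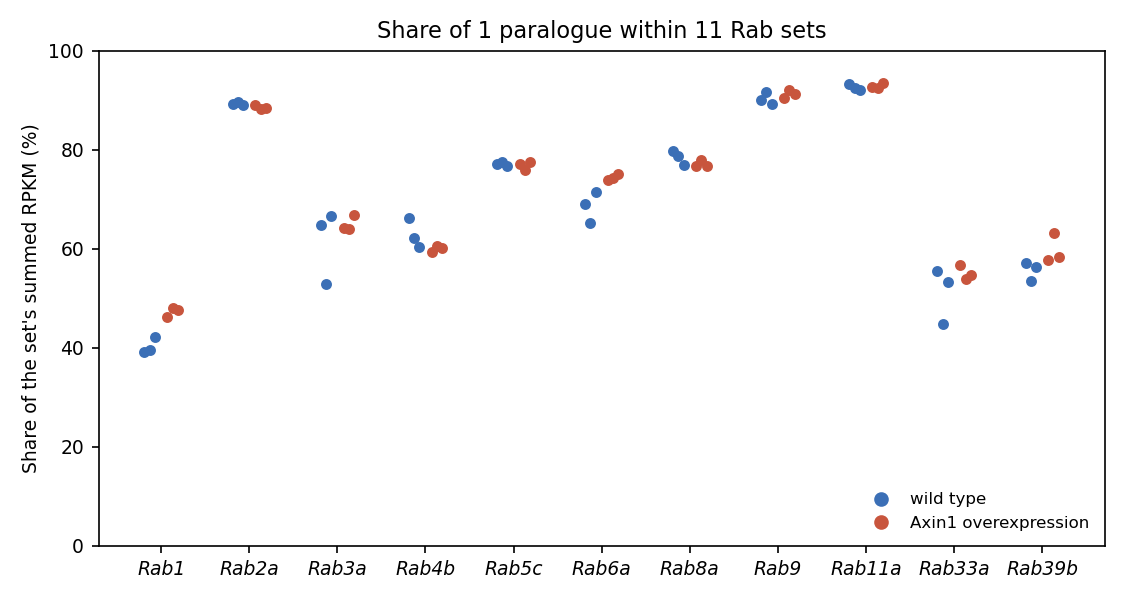
Share (%) of the named paralogue in the summed RPKM of its set, in 3 wild-type (blue) and 3 Axin1 overexpression (red) libraries. The share of Rab1 is 39.2 to 42.1% in wild type and 46.3 to 48.1% in the Axin1 group, and the shares of Rab5c and Rab11a overlap.

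The fold changes of the Rab genes varied with the GC content of their transcripts. Across the 47 genes Pearson's r was -0.49 and Spearman's coefficient -0.51, beside -0.26 and -0.33 across all tested genes with a reference transcript; genes share the same 6 libraries and are not independent replicates. Of the 24 members with the lower GC content (38.1 to 48.1%) 21 had a fold change above 0 and 6 were called higher. Of the 23 with the higher content (48.4 to 59.2%) 11 were above 0, with 1 called higher and 1 lower. Among all tested genes, of any GC content, 14.4% were called higher and 8.37% lower. Those genes were not split by GC content, so the counts are not shown to be particular to Rab genes. In 6 of 9 pairs of paralogues the gene with the lower GC content had the higher fold change, as for Rab1 (40.8%) and Rab1b (58.9%), and in 3 the lower one, as for Rab33b (45.7%, 0.08) and Rab33a (53.5%, 0.28), Rab9b and Rab9, and Rab2a and Rab2b. With GC content and length corrected for in each library, Rab13 (log2 fold change 0.27, limma adjusted p = 0.0195) was the only one of the 8 still called, Rab12 passed as lower (-0.22, adjusted p = 0.0412), and the median of the 47 was 0.00. For the members counted over a much shorter model, such as Rab7 and Rab18, the reference transcript gives a GC content of bases that were not counted.

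**Figure D5:**
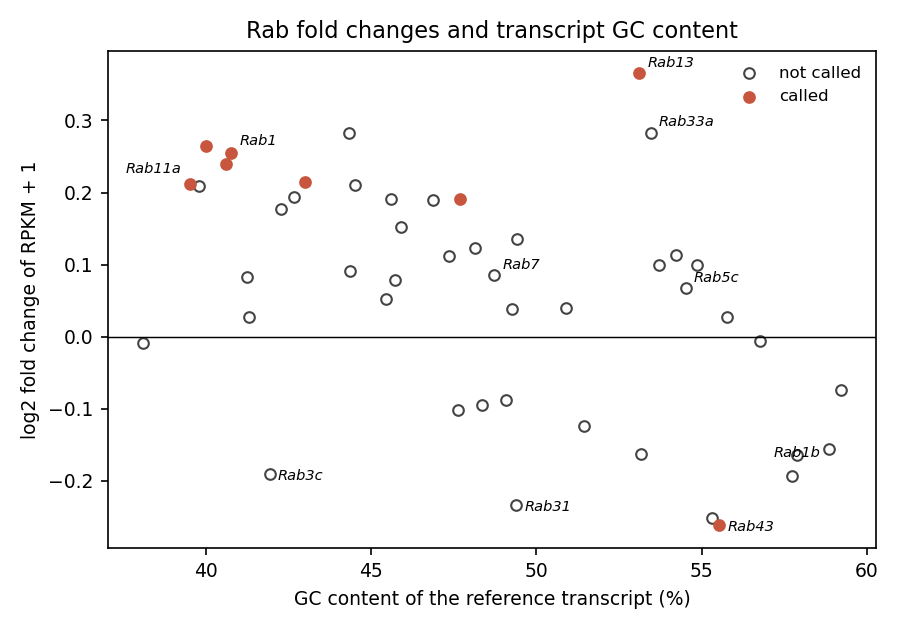
Log2 fold change of RPKM + 1 of the 47 tested Rab genes against the GC content of the reference transcript (%); filled points are the 8 called genes. Of the called genes Rab13 (53.1% GC) and Rab43 (55.5% GC) have GC-rich transcripts, and the other 6 lie between 39.5 and 47.7%.

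Genes that load, switch or read Rab proteins were taken from 8 lists. Of 155 tested, 10 were higher and 8 lower (11.6%, against the 22.8% of all genes). Of 9 escort, prenylation and GDI genes 1 was higher, Gdi2, the widely expressed GDP dissociation inhibitor (log2 fold change 0.28, limma adjusted p = 0.0444; median of the list 0.01). Of 38 GEF genes 1 was lower, Dennd2c, a DENN domain exchange factor (-0.46, adjusted p = 0.00582; median -0.04). Of 35 GAP genes 1 was higher and 2 lower (median -0.01). Tbc1d14, a TBC domain protein that binds Rab11 and acts in recycling endosomes and autophagy, had 52.9, 63.9 and 49.2 RPKM in wild type and 33.5, 36.6 and 36.9 RPKM with Axin1 overexpression, and fell by 0.61 on the log2 scale (SE 0.10, limma adjusted p = 0.00488). Usp6nl, a GAP for Rab5, fell by 0.42 (adjusted p = 0.0055).

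Of 22 effectors of Rab11 and recycling genes 4 were higher and 2 lower (median 0.09). Ehd4, a membrane-remodelling ATPase of endosomes, had 30.5, 31.9 and 34.2 RPKM in wild type and 42.4, 41.8 and 42.7 RPKM with Axin1 overexpression, and rose by 0.38 (SE 0.06, limma adjusted p = 0.0055). Sh3tc2, which binds Rab11, fell by 0.37 on the log2 scale (adjusted p = 0.00598). Of 17 genes of Rab7 effectors, HOPS and retromer 1 was higher and 1 lower (median 0.08): the retromer subunit Vps29 (0.25, adjusted p = 0.0416) and Fyco1, which links Rab7 vesicles to kinesin (-0.37, adjusted p = 0.00486). Of 6 tested effectors of Rab3 and Rab27 1 was lower, Rims1, a Rab3 effector of the active zone (-0.48, adjusted p = 0.00407). Of 15 Golgi effectors 3 were higher and 1 lower (median 0.03), with the tether Uso1 at 0.30 (adjusted p = 0.0279) and the kinesin Kif20a, which also acts in cell division, at 0.33 (adjusted p = 0.0298). By limma 0 of 13 effectors of Rab5 and Rab4 passed. At an unadjusted p under 0.05 there were 3 of the 13, against 39.0% of all tested genes. Voom on recovered reads called 1 (Appl1) and the authors' deposited table had 0. The calls of Tbc1d14, Usp6nl, Ehd4, Sh3tc2, Fyco1, Dennd2c and Rims1 held under every other setting in which they were tested, and those of Gdi2, Uso1, Kif20a and Vps29 were lost under 7 to 11 of 16, among them the GC and length correction and the loss of Axin1 replicate 2 or 3.

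Among other small GTPases 8 of 25 Arf and Arl genes and 5 of 24 Ras genes were higher, and 0 of either were lower by limma, against 14.4% higher and 8.37% lower among all genes. Both medians were 0.15 on the log2 scale, beside 0.09 for the Rab genes. No difference between these families was tested.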

How the data were processed

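Translating ribosome affinity purification RNA of 6 libraries was sequenced, and the authors' deposited table holds 1 RPKM value per transcript row and library. The unit was inferred from the values, since the header names none. With 1 length per row, 1 total per library and the deposited mean over all libraries, 100.0% of values in single-transcript rows came out whole within 0.05 of a read (24.0% where several transcripts share a row), which gave the depths. The deposited table also holds the authors' normalised signal averaged over all libraries, their fold (a ratio of group means) and their p-values. The fold was infinite in 548 of 548 rows with reads in 1 wild-type library alone and 0 in 302 of 302 rows with reads in 1 Axin1 library alone, so it was read as wild type over Axin1. The authors' 2 group means, whose headers name no group, were not used. Bowtie, DESeq and the build mm9 are named in the submitters' processing notes. The read counter was not given in the sources used here.

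Rows with a mean of at least 1 RPKM (12493) were tested with limma 3.58.1 in R 4.3.3 on log2(RPKM + 1) for all 6 libraries, with Benjamini-Hochberg adjustment over all of them and a threshold of 0.05. The procedure was tested on simulated data, with the same spread for every gene and changes larger than that of any tested Rab gene. That test therefore does not bear on calls of the size reported here. At a length of 1 kb, 3 reads correspond to 0.048 to 0.142 RPKM, counting error only. Alternatives were pseudocounts of 0.1 and 10, no filter, a filter of 5 RPKM, a replicate block, 2 rescalings, voom on recovered reads, trended robust variances, a loess correction for GC content and length, and leaving out each library. Exact permutation tests were used for paralogue shares. Genes named were all Rab4, Rab5, Rab7 and Rab11 genes, all called members, the 5 highest, the 3 nearest on either side of 1 RPKM, the largest difference in each role, and for each list of other genes the 2 called with the lowest p; members named beyond these were chosen after their values were seen. The members and lists were chosen with earlier results of these data known. Transcript overlap and GC content came from GENCODE vM21, whose build differs from that of the files, so no coordinate of the files was used with it. Upstream windows came from RefSeq on GRCm38.p6, where 48 of 58 members were matched through their transcript identifiers.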

Additional observations from a re-analysis of the deposited data

How the results depend on the processing

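With 7 Rab genes higher and 1 lower as reported, rescaling by the median of ratios gave 3 and 2, rescaling to a shared upper quartile 2 and 2, and the GC and length correction 1 and 1. A pseudocount of 10 gave 2 lower (949 of all 12493 tested genes). No filter gave 0 lower, beside 1629 higher and 882 lower of all 18917 genes then tested. Leaving out 1 library at a time gave 1 to 7 higher and 0 to 1 lower. Over all tested genes the same runs gave 589 to 1492 higher and 465 to 933 lower, against 1800 and 1046 with every library. Of the Rab machinery, 10 higher and 8 lower as reported, the median of ratios gave 5 and 13, the upper quartile 3 and 14, and no filter 6 higher. Leaving out 1 library gave 1 to 10 higher and 6 to 9 lower. The single higher call remaining came without wild-type replicate 2, Axin1 replicate 2 or Axin1 replicate 3 for the Rab genes, and without Axin1 replicate 2 or 3 for the machinery, and the cause was not tested. The second lower Rab gene under a pseudocount of 10 and both rescalings was Rab1b. Across all tested genes, 1117 were higher and 1466 lower at the shared upper quartile, and 871 and 899 after the GC and length correction. None of the 8 called Rab genes or 18 called machinery genes changed direction under any alternative run.

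With the replicate number as a block, 5 Rab genes were higher and 1 lower, and 8 machinery genes were higher and 8 lower. Over all 12493 tested genes that run gave 1591 higher and 1084 lower. Deviations of same-numbered libraries correlated at 0.08, 0.13 and 0.06, not all above 0.1, so the numbers were not taken to pair the libraries, although each library correlated best with its own number. The difference in reads between the groups (53524184 to 62507510 against 21076922 to 37040176) limits the precision of the low genes most. The limma p-values rest on the spread between 3 libraries per group, drawn by limma towards the spread of all tested genes.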
